A study of Mus musculus with 6 samples.

Results

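Muscarinic receptors and the genes of acetylcholine turnover were compared between aged mice with and without anesthesia plus operation. The genes were the 5 muscarinic receptors (Chrm1 to Chrm5), the enzyme and the transporter that supply acetylcholine (Chat and Slc5a7) and the 2 cholinesterases (Ache and Bche). They were chosen by name, all 9 were among the 21006 genes measured, and all 9 passed the filter on low values. The samples were prefrontal cortex of wild type C57BL/6 male mice, 18 months old per the labels, with 3 mice in each of 2 groups and 1 sample a mouse. The sample titles carry 17M, which the labels do not explain and which, if read as months, is not the same age. The PND group (postoperative neurocognitive disorder) had isoflurane anesthesia and exploratory laparotomy, a surgical opening of the abdomen, with lidocaine cream and povidone iodine on the wound afterwards. The CON group had neither anesthesia nor operation, and since there was no group with anesthesia alone, the parts of that treatment cannot be told apart. All mice had fear conditioning with foot shocks on the day before operation, and an open field test and recall tests on the day after. Over the following days they went through the Barnes maze, a test of spatial memory. Soon after its last test, and so days after the operation, they were deeply anesthetized with isoflurane and perfused with saline.

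Acetylcholine is made from choline and acetyl-CoA by choline acetyltransferase (Chat), in neurons that recover choline through the high-affinity choline transporter (Slc5a7) and load vesicles through the vesicular transporter (Slc18a3). The cortex receives most of its acetylcholine from axons of basal forebrain neurons, whose cell bodies and most of whose mRNA lie outside it, while the striatum holds cholinergic interneurons of its own. The M1, M3 and M5 receptors couple to Gq proteins and phospholipase C, and the M2 and M4 receptors couple to Gi proteins and lower cyclic AMP. Acetylcholinesterase (Ache) ends the signal at the synapse, and butyrylcholinesterase (Bche) hydrolyzes acetylcholine and other choline esters.

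The windows around the annotated transcription start are shown for the genes on which the comparison turns, which were Chrm5, the receptor that differed most, and Chrm4, Chat and Slc5a7, each of which varied over 2-fold among the CON mice. RefSeq (GRCm38.p6) held such a window for 8 of the 9 genes, with no entry for Chrm1. Each window runs from 250 bases before the start to 50 bases after it, and is written 5′ to 3′ on the strand of the gene. The windows were chr2:112480768-112481067 (minus strand) for Chrm5, chr2:91921939-91922238 (plus) for Chrm4, chr14:32465860-32466159 (minus) for Chat and chr17:54298985-54299284 (minus) for Slc5a7. Capitals mark matches on either strand to the TATA box (TATAAA), the CCAAT box (CCAAT), the GC box (GGGCGG), the E-box (CACGTG) or the CRE (TGACGTCA).
Chrm5: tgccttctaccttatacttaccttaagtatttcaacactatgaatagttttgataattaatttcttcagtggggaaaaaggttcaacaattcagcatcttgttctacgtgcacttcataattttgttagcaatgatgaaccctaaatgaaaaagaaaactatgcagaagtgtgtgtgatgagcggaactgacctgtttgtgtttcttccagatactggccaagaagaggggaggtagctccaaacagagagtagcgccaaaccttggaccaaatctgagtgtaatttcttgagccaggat
Chrm4: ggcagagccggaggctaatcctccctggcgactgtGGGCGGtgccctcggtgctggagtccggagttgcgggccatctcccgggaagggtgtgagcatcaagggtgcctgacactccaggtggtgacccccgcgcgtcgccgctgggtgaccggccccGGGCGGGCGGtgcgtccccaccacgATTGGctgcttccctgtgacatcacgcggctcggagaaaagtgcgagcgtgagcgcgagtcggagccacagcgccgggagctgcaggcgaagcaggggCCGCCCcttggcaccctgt
Chat: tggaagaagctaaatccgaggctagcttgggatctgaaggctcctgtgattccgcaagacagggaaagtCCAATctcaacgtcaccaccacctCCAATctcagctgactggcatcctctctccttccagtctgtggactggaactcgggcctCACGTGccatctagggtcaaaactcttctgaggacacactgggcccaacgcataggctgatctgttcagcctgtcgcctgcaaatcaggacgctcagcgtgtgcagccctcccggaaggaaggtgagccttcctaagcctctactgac
Slc5a7: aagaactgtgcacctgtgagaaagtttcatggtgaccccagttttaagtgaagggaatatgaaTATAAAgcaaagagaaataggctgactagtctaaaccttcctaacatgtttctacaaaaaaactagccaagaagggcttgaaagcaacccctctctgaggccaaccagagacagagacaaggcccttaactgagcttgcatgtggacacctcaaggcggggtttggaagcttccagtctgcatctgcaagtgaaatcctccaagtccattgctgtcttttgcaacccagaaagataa
The Chrm5 window held 0 matches and had a GC content of 39.0%. The Chrm4 window had a GC content of 70.7% and held 1 CCAAT box and 4 GC boxes, of which 2 overlap each other. The Chat window held 2 CCAAT boxes and 1 E-box, and the Slc5a7 window held 1 TATA box. Of the 32851 RefSeq windows of this length, 13.6% held a TATA box, 37.4% a CCAAT box, 35.7% a GC box, 7.15% an E-box and 1.79% a CRE.

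Levels are given in FPKM (fragments per exon kilobase relative to the depth of the library), which the authors also normalized between samples. The FPKM of a sample summed to between 215640 and 240447. The deposited values gave no depth, and it was estimated from the steps between low values, where the smallest step is 1 fragment. This gave an effective depth of 7193242 to 9387922 fragments a sample. Differences are log2 fold changes of PND over CON on the log2(FPKM + 0.1) scale from limma, with a standard error (SE), and they understate the change of genes with low values. The study's cut-off was an absolute log2 fold change above 1 with an unadjusted p below 0.05. It was passed in either direction by 241 of the 18185 genes tested (1.33%), with higher values in PND for 153 (0.841%), while 569 (3.13%) had an unadjusted p below 0.05 and 2 had an adjusted p below 0.05. Markers of cortical excitatory neurons were present in every sample, with Neurod6 between 78.2 and 104 FPKM. Markers of the striatum, which lies beneath the frontal cortex, were also present in every sample, at unlike levels. Penk, the enkephalin precursor, was between 50.0 and 147 FPKM, and Adora2a between 1.42 and 3.07 FPKM. In bulk tissue, fewer cells of a type and less RNA per cell cannot be told apart.

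Chrm5 alone was past the study's cut-off, 1 of 9 beside 1.33% of all genes tested. The adjusted p (Benjamini-Hochberg over all genes tested) was 0.9999 for each of the 9. In 3 of the 9 genes the groups did not overlap, against 1393 genes (7.66%) of all those tested. In Chrm5 all PND mice lay above all CON mice, and in Chrm2 and Bche all PND mice lay below. Per length and over the 6 samples, the order of the mean levels was Chrm1, Chrm2, Chrm3, Chrm4, Slc5a7, Bche, Ache, Chat and Chrm5. Chrm1 exceeded Chrm2 in 6 of 6 samples and their ranges did not overlap. Chrm2 exceeded Chrm3 in 6 of 6 samples as well, although their ranges overlapped. Chrm3 and Chrm4 kept their order in 4 of 6 samples and Chrm4 and Slc5a7 in 2 of 6, so these neighbours were not separated. Each later neighbour kept its order in 5 of 6 samples.

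**Figure D1:**
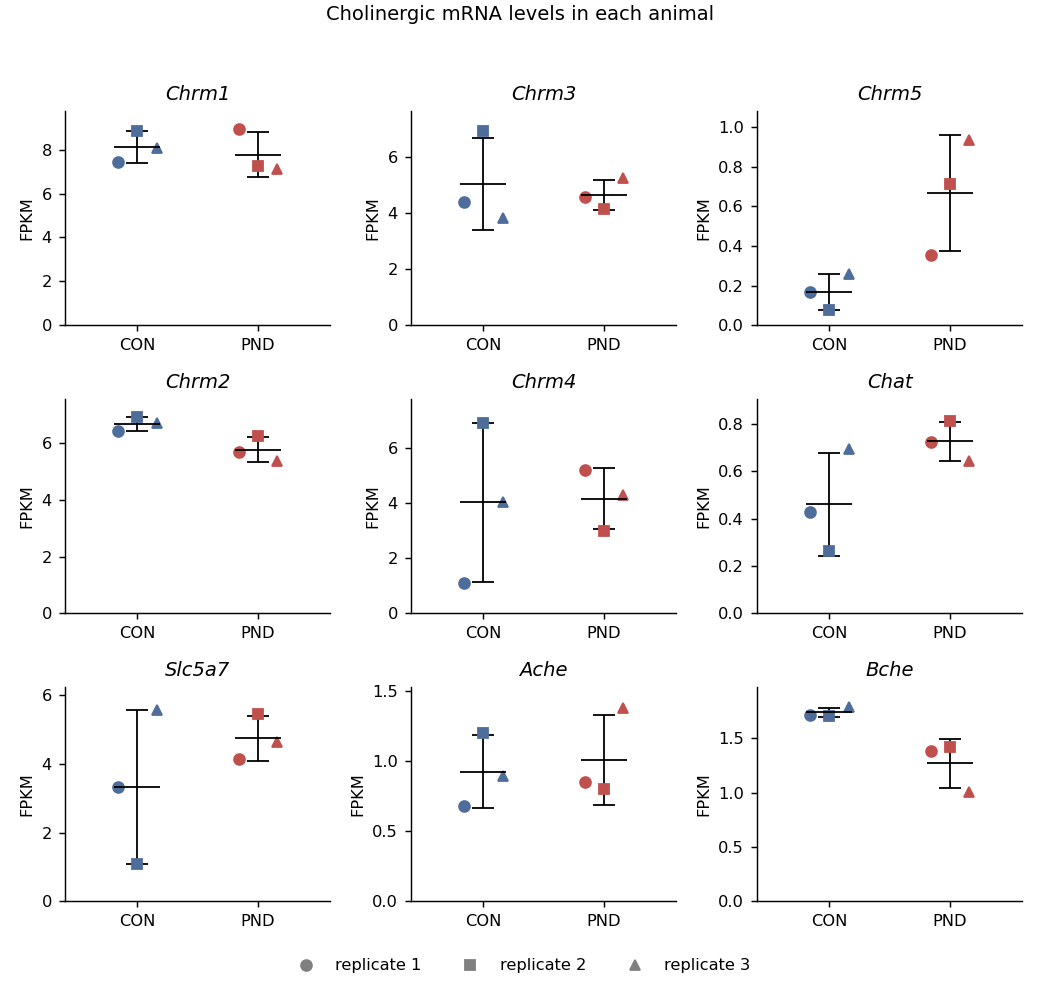
Level of each of the 9 genes in FPKM (vertical axis, linear, a separate scale in each panel) in every mouse, with the PND and CON groups side by side, one point a mouse and bars for the mean ± SD of 3 mice. The groups do not overlap in the panels of Chrm5, Chrm2 and Bche, and the CON mice are widely spread in those of Chrm4, Chat and Slc5a7.

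Among the Gq-coupled receptors, Chrm5 was higher in PND while Chrm1 and Chrm3 differed by less than the spread between mice. Chrm5, the M5 receptor, which is best known from dopamine neurons of the midbrain, was measured at 0.353, 0.712 and 0.933 FPKM in PND replicates 1 to 3 and at 0.167, 0.0768 and 0.261 FPKM in CON replicates 1 to 3. Every PND mouse lay above every CON mouse, and the nearest pair were PND replicate 1 and CON replicate 3. The group means were 0.666 ± 0.292 and 0.168 ± 0.0920 FPKM (SD, n = 3 each), a ratio of 3.96. The log2 fold change was 1.49 (SE 0.45), with a 95% interval of 0.44 to 2.55, which is 1.35-fold to 5.86-fold. The unadjusted p from limma was 0.0120 and the adjusted p was 0.9999. The study picked Chrm5 as a hub gene from these same samples, so this difference is not independent evidence of its direction.

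Few fragments stood behind the Chrm5 values. Multiplied by the length of its 1 counted exon and the depth, they gave 5, 9 and 14 fragments in PND replicates 1 to 3 and 2, 1 and 3 in CON replicates 1 to 3, each within 0.05 of a whole number. In all, 28 fragments in PND stood against 6 in CON. Per unit of depth the ratio was 4.08, with an exact 95% interval of 1.66 to 12.0 that covers counting error only and not the spread between mice. Leaving out 1 mouse at a time moved this ratio between 3.15 (without CON replicate 2) and 5.59 (without CON replicate 3). Without PND replicate 3, the log2 fold change was 1.24 with a limma p of 0.0526, and the gene no longer passed the cut-off. With a pseudocount of 1 FPKM in place of 0.1, the log2 fold change was 0.50. Only 17.3% of the genes tested had a lower mean level than Chrm5.

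The Chrm5 model that fits these whole numbers lies on chromosome 2 from 112479171 to 112480769 on the minus strand (GRCm38, GENCODE M21), and its 1 exon of 1599 bases is coding sequence with the stop codon and no untranslated region. The RefSeq start in the window above lies 48 bases upstream of this model, so any untranslated sequence between that start and the model was outside what was counted. Chrm4 had the same kind of model, 1440 bases of coding sequence on chromosome 2 from 91927249 to 91928688 on the plus strand, with the RefSeq start 5060 bases upstream. The per-length levels of these receptors rest on the coding part alone, while those of the other 7 genes rest on models with untranslated regions.

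**Figure D2:**
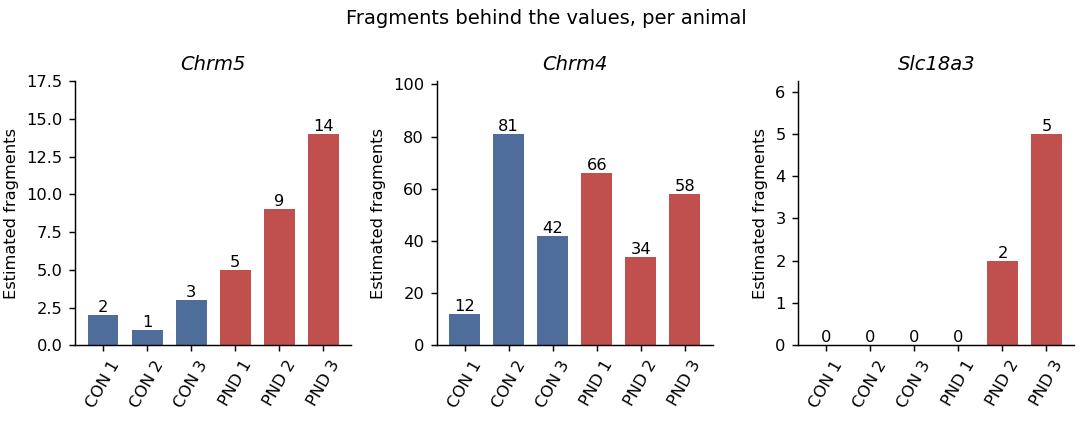
Estimated number of fragments (vertical axis, linear) behind the values of Chrm5, Chrm4 and Slc18a3 in each of the 6 mice. Chrm5 rests on 1 to 14 fragments a mouse and Slc18a3 on 0 to 5, while Chrm4 ranges from 12 to 81.

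Chrm1, the M1 receptor and the main muscarinic receptor of cortical pyramidal neurons, was at 8.94, 7.26 and 7.12 FPKM in PND and 7.42, 8.86 and 8.06 FPKM in CON. The groups overlapped, and the log2 fold change was -0.06 (SE 0.15, 95% interval -0.41 to 0.28). It had the highest level of the 9 genes, above 76.3% of the genes tested, and 361 to 513 estimated fragments a sample, so a change of the size measured for Chrm5 lies outside its interval of 0.754-fold to 1.21-fold. Chrm3, the M3 receptor, which also drives secretion and smooth muscle contraction outside the brain, was at 4.55, 4.15 and 5.23 FPKM in PND and 4.38, 6.90 and 3.83 FPKM in CON. Its groups overlapped, and the log2 fold change was -0.07 (SE 0.24, 95% interval -0.63 to 0.48). The direction of both estimates turned when CON replicate 2, the highest CON mouse for each, was left out, and that of Chrm3 also without PND replicate 2.

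The Gi-coupled receptors differed in how steady they were. Chrm2, the M2 receptor, an autoreceptor on cholinergic terminals that is also found on cortical neurons, was at 5.70, 6.26 and 5.39 FPKM in PND and 6.43, 6.92 and 6.72 FPKM in CON. All PND mice lay below all CON mice, with means of 5.78 ± 0.439 and 6.69 ± 0.246 FPKM (SD, n = 3 each) and a ratio of 0.864. The log2 fold change was -0.21 (SE 0.13, 95% interval -0.51 to 0.09) and the unadjusted p from limma was 0.149, so the difference did not pass the test.

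Chrm4, the M4 receptor, which is most abundant in the striatum, was at 5.18, 2.99 and 4.29 FPKM in PND and 1.11, 6.90 and 4.05 FPKM in CON. The lowest and the highest of the 6 values were both CON mice, 6.21-fold apart, with 12 fragments in CON replicate 1 and 81 in CON replicate 2. Its log2 fold change was 0.34 (SE 0.59), and its interval of -1.05 to 1.73 (0.482-fold to 3.32-fold) holds changes in either direction. Without CON replicate 1 the estimate turned to -0.38. The GC content of Chrm4 is 57.0%, and its values moved with those of other GC-rich genes. Over the 1233 genes in the top 10% by GC content, the median deviation from a gene's mean was lowest in CON replicate 1 (-0.56 on the log2 scale) and highest in CON replicate 2 (0.49), the same mice as for Chrm4. In PND replicates 1 to 3 it was 0.11, -0.30 and 0.37. The part of this in the Chrm4 values was not tested beyond a fit with GC correction, in which the direction stayed the same.

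**Figure D3:**
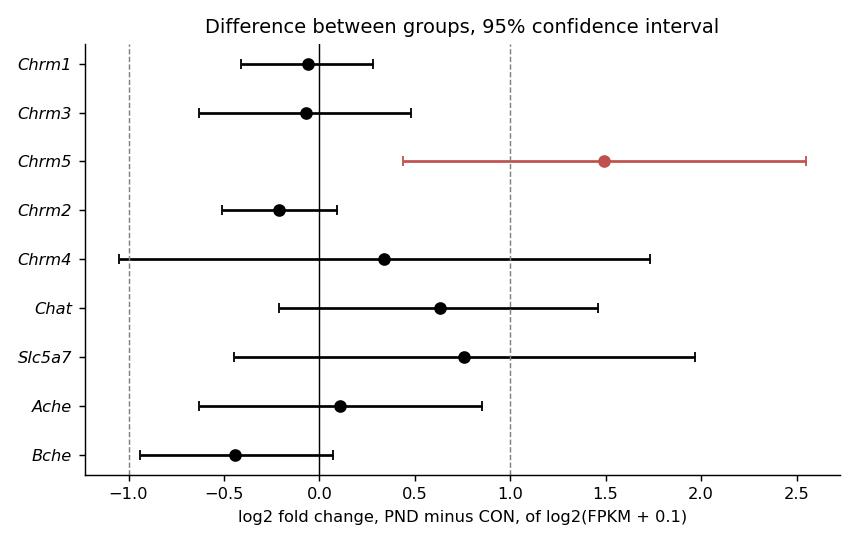
Log2 fold change of PND over CON for the 9 genes (horizontal axis, log2 scale) with 95% intervals from limma, and dashed lines at a log2 fold change of -1 and 1. Only the interval of Chrm5, drawn in red, lies wholly on one side of 0, and those of Chrm4 and Slc5a7 are wide.

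The make-up of the receptor pool followed from these levels. The FPKM of the 5 receptors summed to 24.7, 21.4 and 23.0 in PND and to 19.5, 29.7 and 22.9 in CON, so the groups overlapped. Chrm1 made up the largest share in every mouse, between 29.9% and 38.0% of the sum. Chrm5 made up 1.43%, 3.33% and 4.06% in PND and 0.855%, 0.259% and 1.14% in CON, the smallest share in every mouse. Its mean share was 2.94% ± 1.36 against 0.751% ± 0.449 (SD, n = 3 each). The share of Chrm4 ranged from 5.70% in CON replicate 1 to 23.3% in CON replicate 2, more percentage points than that of any other receptor, while as a ratio the share of Chrm5 varied more.

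**Figure D4:**
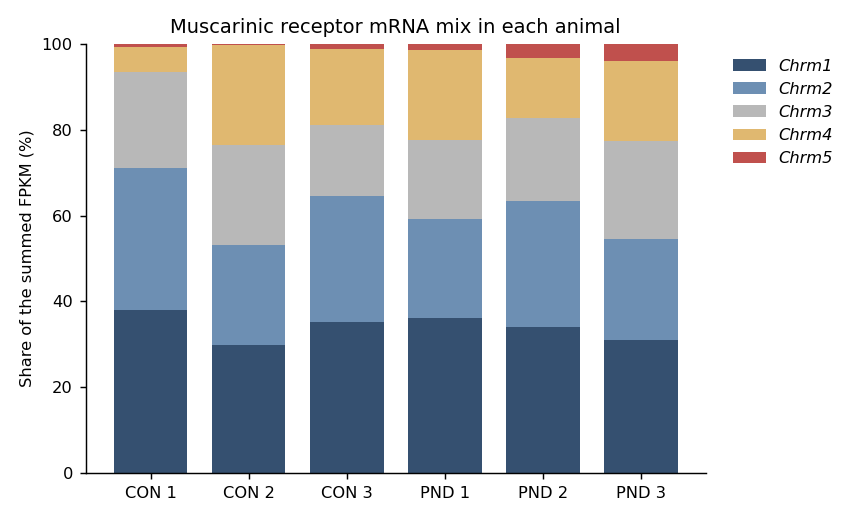
Share of each muscarinic receptor in the summed FPKM of the 5 receptors (vertical axis, percent, stacked to the whole) in each of the 6 mice. Chrm1 to Chrm4 make up nearly the whole of every bar, the Chrm4 segment is smallest in CON replicate 1 at 5.70%, and the Chrm5 segment reaches 4.06% in PND replicate 3.

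The genes of acetylcholine supply had higher means in PND, without passing the test, and varied more among the CON mice than among the PND mice. Chat was at 0.724, 0.810 and 0.644 FPKM in PND and 0.427, 0.262 and 0.693 FPKM in CON. The means were 0.726 ± 0.0829 and 0.461 ± 0.217 FPKM (SD, n = 3 each), a ratio of 1.58, and CON replicate 3 lay among the PND mice. The log2 fold change was 0.63 (SE 0.36, 95% interval -0.21 to 1.46), with an unadjusted p of 0.119 from limma. Slc5a7 was at 4.15, 5.45 and 4.65 FPKM in PND and 3.33, 1.09 and 5.56 FPKM in CON. Its highest and its lowest mice were both in CON, and the means were 4.75 ± 0.655 and 3.33 ± 2.23 FPKM (SD, n = 3 each). For Slc5a7 the log2 fold change was 0.76 (SE 0.51, 95% interval -0.45 to 1.97), with an unadjusted p of 0.182. The SD was 47.2% of the mean for Chat and 67.2% for Slc5a7 in CON, against 11.4% and 13.8% in PND, a difference in spread that was not tested.

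CON replicate 2 was the lowest mouse for both genes and CON replicate 3 the highest of its group. Without CON replicate 2 the log2 fold change was 0.35 for Chat (limma p of 0.322) and 0.13 for Slc5a7 (p of 0.623). Without CON replicate 3 it was 0.91 (p of 0.0376) and 1.26 (p of 0.0297), with adjusted p-values of at least 0.846 for Chat and 0.922 for Slc5a7 over all settings tried. Slc5a7 exceeded Chat per length in every mouse, from 4.16-fold in CON replicate 2 to 8.03-fold in CON replicate 3. At most 30.1 estimated fragments a mouse stood behind Chat, and 50.2 to 246 behind Slc5a7. Slc18a3, the vesicular acetylcholine transporter, lies within the span of Chat on chromosome 14 without sharing exons. It rested on 0, 2 and 5 fragments in PND and 0 in each CON mouse, where a count of 0 allows up to 3 fragments, and its mean level was under the filter.

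CON replicate 2 was also the lowest mouse for 3 of the 11 genes tested of the list on acetylcholine handling and cholinergic neurons, the transcription factors Lhx8, Isl1 and Gbx1, beside 17.1% of all genes tested. Ngfr, a neurotrophin receptor of basal forebrain cholinergic neurons, was at 0 FPKM in CON replicate 1, 0.285 FPKM in CON replicate 2 and 0.484 FPKM in CON replicate 3, so its lowest mouse was another. Gbx1 rested on 2 estimated fragments in CON replicates 1 and 2 alike, so that its lowest mouse is a tie set by depth. Nkx2-1, singled out for its likeness to Chat, shares the low mouse by that choice. This factor, which patterns the ventral forebrain, was at 0.770, 0.901 and 0.561 FPKM in PND and 0.372, 0.152 and 0.603 FPKM in CON. Lhx8, which specifies forebrain cholinergic neurons, was at 0.801, 0.512 and 0.782 FPKM in PND and 0.507, 0.0621 and 0.458 FPKM in CON, with every PND mouse above every CON mouse by a margin as small as 0.512 against 0.507. Lhx8 had a log2 fold change of 1.05, with an SE of 0.55 and a limma p of 0.0938. Isl1, another factor of striatal and basal forebrain neurons, was at 0.569 FPKM in CON replicate 2 and between 1.47 and 2.27 FPKM in the other mice.

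Of the markers of neighbouring regions, 7 of the 12 striatal markers were lowest in CON replicate 2, beside 17.1% of all genes tested. So were 4 of the 7 genes tested of the septal, basal forebrain and hypothalamic list. These were Lhx8, Gbx1, Isl1 and Zic1, so that all but Zic1 had already been counted in the list on acetylcholine handling and cholinergic neurons. The 9 measured genes of the septal, basal forebrain and hypothalamic list summed to 8.06 to 9.43 FPKM in PND and 9.08, 3.45 and 7.46 FPKM in CON replicates 1 to 3, so that CON replicate 1 lay among the PND mice by this sum. By the median deviation of the list from the gene means, CON replicates 1 to 3 stood at -0.36, -0.87 and 0.03 on the log2 scale and PND replicates 1 to 3 at 0.26, 0.36 and 0.39, so that all CON mice lay below all PND mice. In that list Pmch and Gal were each at 0 in 3 or more samples or absent from the genes measured, which held 9 of its 12 genes. The 12 striatal markers summed to 265 to 324 FPKM in PND and 177 to 393 FPKM in CON, lowest in CON replicate 2 and highest in CON replicate 3, as for Slc5a7. Their median deviation was -0.11, -0.53 and 0.50 in CON replicates 1 to 3, and none of them was at 0 in 3 or more samples. The 8 VIP interneuron markers had the same lowest and highest mice in their sum, at 88.5 and 176 FPKM. That list shares Penk with the striatal list, and Penk made up most of both sums. It was at 50.0 FPKM in CON replicate 2 and 147 FPKM in CON replicate 3. The median deviation of the VIP list was 0.22 in CON replicate 2 and -0.23 in CON replicate 3 on the log2 scale. The 8 excitatory neuron markers had their highest sum in CON replicate 2. Their sums were 194 to 314 FPKM in CON and 205 to 244 FPKM in PND. The part of these cell types and regions in the Chat and Slc5a7 values was not tested.

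**Figure D5:**
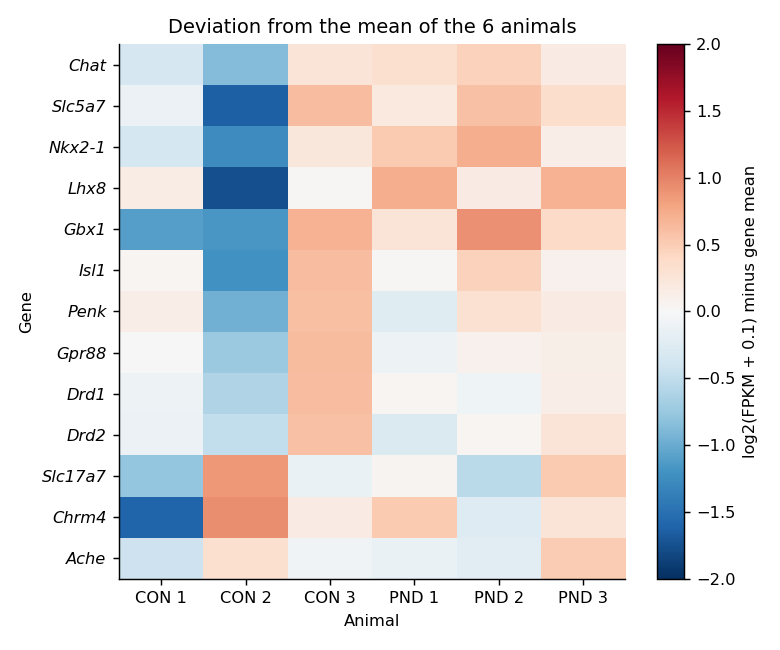
Deviation of each gene from its mean over the 6 mice on the log2 scale (color; rows are genes, columns are mice) for Chat, Slc5a7, neuron transcription factors, striatal markers, the cortical marker Slc17a7, Chrm4 and Ache. CON replicate 2 is low for Chat, Slc5a7, Nkx2-1, Lhx8, Isl1 and the striatal markers and high for Slc17a7, Chrm4 and Ache.

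Of the enzymes that break acetylcholine down, Bche had lower values in PND and Ache overlapped between groups. Bche, made mainly by glia and in plasma by the liver, was at 1.38, 1.42 and 1.01 FPKM in PND and 1.72, 1.71 and 1.79 FPKM in CON. The CON mice lay close together, all above the PND mice, with means of 1.74 ± 0.0449 FPKM for CON and 1.27 ± 0.224 FPKM for PND (SD, n = 3 each) and a ratio of 0.730. The log2 fold change was -0.44 (SE 0.22, 95% interval -0.94 to 0.07), with an unadjusted p of 0.0798 from limma. The p fell below 0.05 when the model had no intensity trend (0.0457) or when voom was run on estimated fragments (0.0498), with a log2 fold change of -0.44 and -0.47. It stayed above 0.05 in the other settings, and leaving out 1 mouse at a time gave 0.0813 to 0.245, the highest without PND replicate 3. The estimated fragments were 222 in PND and 268 in CON over 3 mice each.

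Ache was at 0.849, 0.799 and 1.38 FPKM in PND and 0.683, 1.20 and 0.893 FPKM in CON. Its groups overlapped, with a log2 fold change of 0.11 (SE 0.32, 95% interval -0.63 to 0.85). The GC content of Ache is 58.7%, and like Chrm4 it was lowest in CON replicate 1 and, within CON, highest in CON replicate 2. With a correction for GC content its log2 fold change was -0.00093. Bche exceeded Ache per length in 5 of 6 mice, by 1.42-fold to 2.52-fold in the CON mice, and fell below it in PND replicate 3 at a ratio of 0.733.

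Ache, Chrm1 and Chrm2 overlap a gene on the opposite strand by 98, 329 and 142 bases. Use of strand in counting was not given in the sources used here, so reads from those stretches cannot be told apart. The other 6 genes shared no stretch of 60 bases with another gene of the annotation.

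Genes that act around these 9 were read from 4 lists, on acetylcholine handling and cholinergic neurons, Gq-coupled signalling, Gi-coupled signalling and receptor desensitization. Of their 54 genes 51 could be tested, and in limma 0 were past the cut-off and 0 had an unadjusted p below 0.05, beside 1.33% and 3.13% of all genes tested, while voom also gave 0 by either measure. The median log2 fold change was 0.06 for acetylcholine handling and cholinergic neurons (11 genes tested of 14), -0.02 for Gq signalling (14 of 14), 0.01 for Gi signalling (14 of 14) and 0.01 for desensitization (12 of 12), beside 0.01 for all genes tested. The smallest p in the first list was that of Lhx8, above. In the Gi list it was Adcy5, the adenylyl cyclase most abundant in the striatum, with a log2 fold change of 0.26 (SE 0.24) and a p of 0.318. In the desensitization list it was Rgs8, a regulator that speeds the turning off of G proteins, which was at 2.80, 3.35 and 4.32 FPKM in PND and 2.22, 3.19 and 2.66 FPKM in CON. Rgs8 thus had a log2 fold change of 0.36, with an SE of 0.22 and a p of 0.151. Gapdh, the reference gene of the study, had a log2 fold change of 0.36 (SE 0.33) with a p of 0.308.

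Other marker lists, of cell types and neighbouring regions, were read the same way. Of their 86 genes tested, 0 passed the cut-off in limma and 0 in voom. In limma 8 (9.30%) had an unadjusted p below 0.05, beside 3.13% of all genes, and voom gave the same 8. Among these were Pde10a of the striatum, Gfap of astrocytes, Ly6c1 of endothelium and Clic6 of choroid plexus, which had higher values in PND, and Aqp4 of astrocytes, Opalin of oligodendrocytes and P2ry12 of microglia, which had lower values. The defining choroid plexus markers Ttr, Folr1 and Cldn2 were each at 0 in 3 or more samples or absent from the genes measured, which held 7 of the 8 in that list. The median log2 fold change of a list lay between -0.16 for oligodendrocytes and 0.34 for choroid plexus (3 genes tested), apart from 0.87 for the septal, basal forebrain and hypothalamic list (7 genes tested).

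Finally, the genes whose pattern over the 6 samples was most like that of Chat and of Chrm5 were listed by Pearson's r of log2(FPKM + 0.1). All points share libraries and depth, and no test was made. For Chat these were Nkx2-1 (r of 0.988), 9430087B13Rik (0.987), Fstl5 (0.986), Plekha8 (0.985) and Bmx (0.984), and Slc5a7 stood at rank 33 of 18067 genes with an r of 0.94. For Chrm5 they were Mc4r (0.990), 4933415A04Rik (0.987), 9530085L11Rik (0.982), Dlec1 (0.980) and Fyb2 (0.961). Since Chrm5 separates the groups, so do these. Mc4r, the melanocortin 4 receptor, was at 0.984, 1.15 and 1.35 FPKM in PND and 0.677, 0.534 and 0.806 FPKM in CON. Within the 9 genes, Bche and Chrm2 had an r of 0.92.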

How the data were processed

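Prefrontal cortex RNA of 6 mice was made into libraries depleted of ribosomal RNA. The authors aligned reads with HISAT2, counted fragments with StringTie, normalized between samples with TMM, a trimmed mean of log ratios, and deposited FPKM, 1 column per mouse. The submitters' processing notes also name Bowtie 0.12.2, mm8 and mm9 without a role, and the annotation was not given in the sources used here. The authors tested with edgeR and limma.

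Groups came from the treatment labels and replicate numbers from the titles. PND was compared with CON by limma 3.58.1 (lmFit, eBayes with an intensity trend) in R 4.3.3 on log2(FPKM + 0.1), over 18185 genes averaging 0.1 FPKM or more, with Benjamini-Hochberg adjustment. The fit was run on simulated data with a set spread between mice, not the spread of these samples, so its outcome does not carry over to these genes. Symbols were found for 20866 of 21006 identifiers, and 20877 were in GENCODE M21, whose exon lengths served to estimate fragments. Of low values of genes with 1 transcript, 93.8% to 94.5% lay within 0.05 of a whole fragment, and of all genes 41.2% to 44.8%. Promoter windows came from RefSeq.

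The members, lists and tests were chosen with earlier results of these data known. The genes named were the 9 members, Slc18a3, Gapdh, any listed gene past the cut-off, the smallest p of each pathway list (that of the Gq list is not reported here) and the 5 genes most like Chat and Chrm5. Isl1, Gbx1, Zic1, Ngfr, Neurod6, Penk, Adora2a and the markers with a p below 0.05 were singled out after their values were seen.

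Alternatives were another pseudocount or filter, median centring, quantile normalization, no intensity trend, voom on estimated fragments, GC correction, a replicate block and leaving out each mouse.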

Additional observations from a re-analysis of the deposited data

How the results depend on the processing

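Under the alternatives, 137 log2 fold changes of the 9 genes kept their direction and their side of an unadjusted p of 0.05, and 8 changed direction. Leaving out 1 mouse at a time gave log2 fold changes from -0.17 to 0.00013 for Chrm1, -0.25 to 0.17 for Chrm3, 1.22 to 1.83 for Chrm5, -0.27 to -0.16 for Chrm2, -0.38 to 0.89 for Chrm4, 0.35 to 0.91 for Chat, 0.13 to 1.26 for Slc5a7, -0.12 to 0.29 for Ache and -0.52 to -0.30 for Bche. The direction turned for Chrm1 without CON replicate 2, for Chrm3 without PND replicate 2 (0.0015) or CON replicate 2, for Chrm4 without CON replicate 1, and for Ache without PND replicate 3 or CON replicate 1 (-0.07). Chrm5 lost its p below 0.05 without PND replicate 3 (1.24, p of 0.0526), while Chat (0.91) and Slc5a7 (1.26) gained one without CON replicate 3. Ache turned to -0.00093 with GC correction, alone or with the replicate block. Bche had a p below 0.05 without an intensity trend (-0.44) and with voom (-0.47). Chrm5 ranged from 0.50 with a pseudocount of 1 to 1.78 with voom when all mice were kept. The number of the 9 genes past the cut-off was 0 with a pseudocount of 1 or 0.5, with a minimum mean of 1 FPKM, which leaves Chrm5 out, and without PND replicate 3, and it was 2 (Chrm5 and Slc5a7) without CON replicate 3. The number of pathway genes past it rose from 0 to 2, among them Prima1, without PND replicate 2, to 1 (Lhx8) without CON replicate 1 and to 1 (Gbx1) without CON replicate 3. Over all genes the cut-off was passed by 25 genes with a pseudocount of 1, 59 with 0.5, 59 with the minimum of 1 FPKM and 315 without a filter, against 241, and by 235 (without PND replicate 3) to 388 (without CON replicate 2) when 1 mouse was left out. The cause of these shifts was not tested, apart from genes left out by a filter. Same-numbered PND and CON samples did not deviate together (r of -0.049, -0.451 and 0.027 over 12387 genes). Differently numbered samples had r from -0.418 (PND replicate 3 with CON replicate 1) to 0.427 (PND replicate 2 with CON replicate 1). Deviations from a mean of 3 mice cannot settle whether the numbers pair the mice. With the number as a replicate block, Chrm5 had a log2 fold change of 1.49 with a limma p of 0.0186, Bche had a p of 0.154, and 226 genes passed the cut-off. For Chrm5 and Slc18a3 depth limits what can be shown.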
